A study of Mus musculus with 2 samples.

Results

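Retained-intron transcripts are annotated transcripts whose exons run into, or across, a stretch that other transcripts of the same gene splice out. The members described here were the transcript models of class known, that is with all splice junctions of an annotated transcript, whose type in the deposited annotation is retained intron. A model counted as a member when at least 1 read of either library was assigned to it. This gave 3437 members in 2705 genes, out of 22506 known models read and out of 21848 retained-intron transcripts in the annotation.

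The RNA came from adrenal gland tissue of C57BL/6J mice, a wild-type inbred strain, and was read in 2 long-read RNA sequencing libraries of 1 group, which the labels number as biological replicates 1 and 2. The labels give the libraries separate biosamples under a shared donor entry, and technical spread between them cannot be told apart from spread between animals. The sex is male in one label and not recorded in another, age is unknown, and no treatment or genetic change is named. Replicate 1 held 848782 reads and replicate 2 held 545229, of which 615510 and 395235 were assigned to known models. All 6 cortex markers and all 5 medulla markers were read in both libraries, and the cortex markers summed to 40741 CPM in replicate 1 and 60360 CPM in replicate 2, the medulla markers to 10093 and 23122 CPM, and 0 of 5 kidney markers was read in either. Of 4 adipocyte markers 3 were read in replicate 1 and 1 in replicate 2, with 201 CPM and 42.2 CPM in sum, and both erythroid markers had 1304 CPM in replicate 1 and 97.2 CPM in replicate 2; their part in the results was not tested.

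Splicing removes an intron between a 5′ splice site, which usually begins with GT, and a 3′ splice site, which usually ends with AG after a run of pyrimidines. An intron that stays in a coding transcript often brings a stop codon into the reading frame. Transcripts with such a stop can be degraded by nonsense-mediated decay when they reach the cytoplasm, and many transcripts with a kept intron stay in the nucleus. Genes of splicing factors, and of the kinases that phosphorylate them, are known for introns that are kept in part of their RNA. In long-read data a read is a copy of 1 molecule, so levels in CPM (reads per 1000000 reads of the library) are per molecule and were not divided by length.

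The splice sites of introns held by the members of highest level or highest share are shown here, since these are the splice sites that the annotated member keeps inside an exon. Each was read from the sequence of the member in GENCODE M21 (GRCm38, the same assembly as mm10). Capitals mark the intron and small letters the exon, with 3 exon bases on either side.
Rsrp1 intron 3, 5′ splice site: gagGTAAGT
Rsrp1 intron 3, 3′ splice site: AAAATTCTCTTCCTCTTTAGcat
Clk1 intron 3, 5′ splice site: gggGTATGA
Clk1 intron 3, 3′ splice site: CGCCCACTTGACGTGTCCAGaag
Clk1 intron 4, 5′ splice site: gatGTATAG
Clk1 intron 4, 3′ splice site: TAATTATTCCTCTTTTTTAGatg
Ccnl2 intron 4 of transcript Ccnl2-202, 5′ splice site: gtgGTATGC
Ccnl2 intron 4 of transcript Ccnl2-202, 3′ splice site: CTTCCTGGTTTTGGTTTCAGgaa
Sf3b1 intron 4, 5′ splice site: atgGTAATT
Sf3b1 intron 4, 3′ splice site: GTTGCTGTTCTTTTCTGCAGgag
Eprs intron 20, 5′ splice site: cagGTGCTG
Eprs intron 20, 3′ splice site: TTCCTTTTGCATGTCTGCAGatt
Rps24 intron 4, 5′ splice site: aagGTATGG
Rps24 intron 4, 3′ splice site: ATTTCTTTCTCCATTTACAGcca
Ngrn intron 1, 5′ splice site: gagGTACCT
Ngrn intron 1, 3′ splice site: CCATTGGTTCTTTCCCCCAGcgc

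Rsrp1 intron 3 lies on the plus strand at chr4:134925433-134926734 (1302 bases), and Eprs intron 20 on the plus strand at chr1:185407754-185410184 (2431 bases). Clk1 introns 3 and 4 lie on the minus strand at chr1:58420212-58421082 (871 bases) and chr1:58419734-58420120 (387 bases). The interval of Ccnl2 lies on the plus strand at chr4:155818665-155820328 (1664 bases), and Sf3b1 intron 4 on the minus strand at chr1:55014563-55016375 (1813 bases). Rps24 intron 4 is at chr14:24493494-24495774 (2281 bases) and Ngrn intron 1 at chr7:80261424-80261820 (397 bases), both on the plus strand. All of them begin with GT and end with AG, and all but that of Ccnl2 lie between coding exons of the host transcript; the interval of Ccnl2 lies in the 3′ UTR of its host, a nonsense-mediated decay transcript.

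A set of 3 short introns that were held whole is shown with 10 exon bases on either side, because in each the reading frame can be followed across the intron. They lie at chr17:24471150-24471241 (Pgp intron 1, 92 bases, plus strand), chrX:94537756-94537973 (Maged1 intron 7, 218 bases, minus strand) and chr5:118056439-118056536 (Tesc intron 5, 98 bases, plus strand).
Pgp intron 1: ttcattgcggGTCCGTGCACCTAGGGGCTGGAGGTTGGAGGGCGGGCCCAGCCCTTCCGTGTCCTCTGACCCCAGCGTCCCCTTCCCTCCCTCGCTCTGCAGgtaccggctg
Maged1 intron 7: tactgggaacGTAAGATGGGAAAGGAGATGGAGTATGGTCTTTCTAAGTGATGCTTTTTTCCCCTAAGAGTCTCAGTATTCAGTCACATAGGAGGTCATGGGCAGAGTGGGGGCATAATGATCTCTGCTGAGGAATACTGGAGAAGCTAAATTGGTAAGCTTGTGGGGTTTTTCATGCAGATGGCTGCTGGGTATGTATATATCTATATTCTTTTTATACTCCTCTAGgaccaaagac
Tesc intron 5: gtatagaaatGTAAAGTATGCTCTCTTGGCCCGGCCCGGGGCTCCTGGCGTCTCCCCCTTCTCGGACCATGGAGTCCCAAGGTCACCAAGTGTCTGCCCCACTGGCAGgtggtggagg
In the host's frame a stop falls at codon 5 of the Pgp intron and at codon 2 of the Maged1 intron, counted from the first codon that holds an intron base. The Tesc intron holds none in frame.

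Retained-intron transcripts took a small part of the known reads. They received 8779 reads in replicate 1, which was 1.43% of known reads (95% exact binomial interval 1.40 to 1.46), and 6121 reads in replicate 2, which was 1.55% (1.51 to 1.59), a mean of 1.49% ± 0.0866 (SD, n = 2). The difference of −0.12 percentage points was larger than counting error (two-sided Fisher's exact test of member reads against other known reads, p = 6.88e-07). Its direction rested on a few members. In an alternative added after seeing the data, without the 3 of highest mean level, Rsrp1-204, Eprs-204 and Scarb1-209, the shares were 1.34% in replicate 1 and 1.12% in replicate 2, so the higher library changed. For scale, nonsense-mediated decay transcripts took 0.252% in replicate 1 and 0.363% in replicate 2, and protein-coding transcripts 94.5% and 96.6%. This test and those below compare 2 libraries, not conditions, and take reads as independent; intervals cover counting error only.

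Most members were read rarely. Of the 3437, 1600 were read only in replicate 1, 981 only in replicate 2 and 856 in both; 1691 (49.2%) had a single read in all. At least 5 reads in sum were assigned to 568 members, at least 10 to 234 and at least 100 to 9. The 10 members with most reads held 16.0% of member reads in replicate 1 and 34.9% in replicate 2. Members were shorter than coding transcripts, with a median of 1469 bases against 2461 bases for the protein-coding models read and 881 bases for all annotated retained-intron transcripts. Members read only in replicate 1 had a median of 1038.5 bases and those read only in replicate 2 a median of 2148 bases. A member overlapped an exon of another gene on the same strand in 215 cases, where reads may be assigned to either gene.

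Grouped by where the intron sequence sat in the member, some groups took a different part of member reads in the 2 libraries. A whole intron inside an internal exon, flanked by annotated junctions on both sides, was held by 319 members; since reads were assigned by their junctions, a read assigned to such a model crossed the intron from exon to exon. These members took 8.85% of member reads in replicate 1 (8.26 to 9.46) and 30.5% in replicate 2 (29.3 to 31.6). Without the 3 members named above the shares were 8.72% in replicate 1 and 25.1% in replicate 2. A whole intron in a first, last or only exon was held by 839 members, with 29.6% of member reads in replicate 1 and 28.4% in replicate 2. The ends of single reads are not in the files, so how far a read reached into such an exon is not known. The largest group, 1553 members, held no whole intron and ended at the 3′ side inside one, with 45.9% of member reads in replicate 1 and 30.0% in replicate 2. A further 687 members began inside an intron, with 14.5% in replicate 1 and 10.3% in replicate 2, and 39 fell in none of these groups. The groups also differed in median annotated length. It was 2490 bases with an intron in an internal exon and 1932 bases with one in a first, last or only exon. Members that end inside an intron had a median of 1504 bases, and those that begin inside one 751 bases. The part of length in these shares was not tested.

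Many members ended inside an intron, and fewer of them than of coding transcripts held a polyadenylation hexamer near the end. The annotated 3′ end lay inside an intron of another transcript of the gene in 1921 members (55.9%), and only 788 (22.9%) ended within 50 bases of the end of another transcript. The 5′ end matched another transcript within 50 bases in 1852 (53.9%). The polyadenylation hexamers AATAAA or ATTAAA, searched on the transcript strand in the last 50 bases, stood in 29.1% of members, against 72.9% of the protein-coding models and 61.2% of all known models read. Processed transcripts that were read held one in 38.9% of cases. Of annotated retained-intron transcripts without a read, 21.1% held a hexamer and 52.0% ended inside an intron. Their 5′ end matched another transcript in 31.7%, and lay inside an intron in 43.0%, against 29.4% of members. Members with a 3′ end inside an intron held one in 17.5% of cases, and those whose 3′ end matched another transcript in 71.4%. A match is a description of the letters in this window and not evidence of a used site.

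The introns held whole were short and mostly coding. In 1158 members 1424 introns were held, counted by 1 host transcript per member. A protein-coding host was taken first where there was one, and then the most read. The part of coding introns below depends on this choice. Their median length was 295 bases, against 782 bases for the 8004 other introns of the same hosts. They began with GT and ended with AG in 98.2% of cases. Between coding exons lay 1206 (84.7%), and 1090 of these (90.4%) brought a stop codon into the frame of the host, at a median of codon 13. Only 25 of the 116 coding introns without a stop had a length that is a multiple of 3, so that the frame is kept. The first intron of the host made up 21.8% of the held introns. A small RNA gene lay inside 33 of them, 28 times a small nucleolar RNA (snoRNA, which guides chemical changes of ribosomal RNA) and 5 times a microRNA. Examples were introns of Nop56, a protein of snoRNA particles, and of the noncoding snoRNA host gene Gas5, whose member Gas5-218 had 2 reads in replicate 1 and 0 in replicate 2.

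The same introns were then followed over all models of a gene, annotated or not. The share taken was of reads that cover the intron in an internal exon, among reads that do so or splice it. Reads that cover it in a first, last or only exon were in neither count. A read counted as splicing only with a junction at exactly the ends of the intron. Below, an intron is called covered in this sense unless any exon is named. This measure was added after the data had been seen. It could be taken for 397 introns that no protein-coding exon holds and that had 20 or more such reads per library. Replicate 1 had the lower share at 210 of them and the higher at 29. At 157 no read of either library covered the intron in an internal exon. The exact 95% intervals of the libraries did not overlap at 63 introns in 45 genes, which is 15.9% of the 397, and replicate 1 was lower at all 63. These counts describe introns kept in internal exons only. In any exon, Metap2 intron 3 was covered by 153 reads in replicate 1 and 2 in replicate 2, of which 0 and 1 entered. For Eprs intron 20 it was 274 and 608 reads, of which 0 entered. The direction with such reads included was not tested. Introns that no member holds were not counted in this way, so whether the direction is particular to held introns was not tested. Over these 63 the median share was 2.78% in replicate 1 and 33.8% in replicate 2. Keeping an intron also lengthens the molecule, and the median annotated length per protein-coding read was 1679 bases in replicate 1 and 2740 bases in replicate 2. Among the 115 introns under 150 bases, replicate 1 was lower at 59, higher at 12, and lower with intervals apart at 9. Among the 149 introns of 150 to 499 bases it was lower at 90, higher at 13, and lower with intervals apart at 32. Among the 133 introns of 500 bases or more it was lower at 61, higher at 4, and lower with intervals apart at 22. Pooled over reads, the shares in replicate 1 and replicate 2 were 1.57% and 3.85% under 150 bases. They were 1.15% and 6.69% at 150 to 499 bases, and 0.956% and 12.8% at 500 bases or more. The median share per intron was 0% in replicate 1 in each group, and 1.37%, 1.91% and 0% in replicate 2. The part of read length in the difference was not tested.

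**Figure D1:**
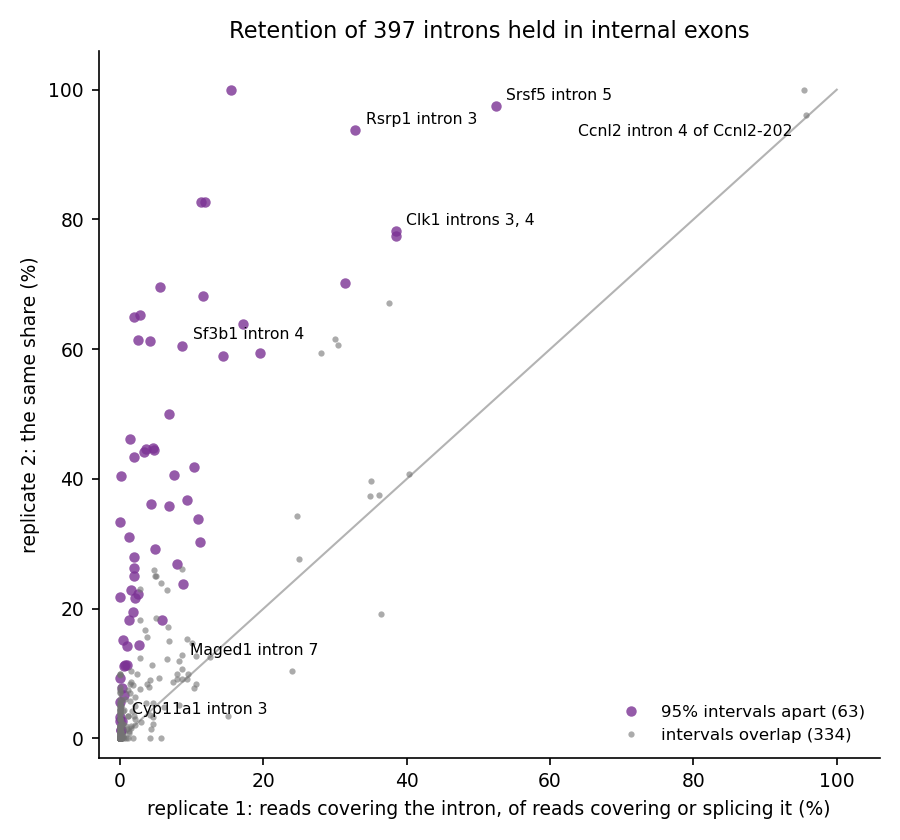
Share of reads that cover each of 397 held introns in an internal exon, of the reads that do so or splice it (%). Replicate 1 is on the horizontal axis and replicate 2 on the vertical axis. Reads covering the intron in a first, last or only exon are not counted. Each point is an intron, large purple points are the 63 whose exact 95% intervals do not overlap, and the grey line marks equal shares. All 63 lie above the line, among them Rsrp1 intron 3 and Srsf5 intron 5.

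Rsrp1-204 was the member of highest mean level. Rsrp1 encodes an arginine and serine rich protein. Rsrp1-204 had 55 reads in replicate 1 (64.8 CPM, 95% exact Poisson interval 48.8 to 84.3) and 757 reads in replicate 2 (1388 CPM, 1291 to 1491). It held 31.8% of the known reads of the gene in replicate 1 (24.9 to 39.3) and 93.5% in replicate 2 (91.5 to 95.1), a mean of 62.6% ± 43.6 (SD, n = 2). The share differed between the libraries (Fisher's exact test within the gene with Benjamini-Hochberg adjustment over all models tested, adjusted p = 6.91e-64). Over all models, intron 3 was covered in an internal exon by 60 and spliced by 123 reads in replicate 1, against 790 and 53 reads in replicate 2. In any exon it was covered by 74 reads in replicate 1 and 807 in replicate 2. The neighbouring intron 2 was spliced by 191 reads in replicate 1 and 864 in replicate 2, so within the gene the low count of splicing reads lay at the held intron. Its 5′ splice site, gagGTAAGT, carries the bases that were most frequent at each intron position over all held introns, with G in 76.9% at the fifth intron base and T in 45.3% at the sixth.

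Clk1, a kinase that phosphorylates serine and arginine rich (SR) splicing factors, held 2 neighbouring introns at once. Clk1-212 had 7 reads in replicate 1 and 100 in replicate 2, and 28.0% against 74.6% of the known reads of the gene (adjusted p = 0.000221, Fisher's exact test). Introns 3 and 4 were each spliced by 16 reads in replicate 1; in replicate 2 they were spliced by 33 and 34 reads. Introns 2 and 5 were spliced by 28 and 32 reads in replicate 1 and by 150 and 160 in replicate 2. In an internal exon, each was covered by 10 reads in replicate 1, and they were covered by 118 and 117 in replicate 2. Of the reads that did so or spliced them this was 38.5% in replicate 1, and 78.1% and 77.5% in replicate 2. In any exon, intron 3 was covered by 10 reads in replicate 1 and 124 in replicate 2, and intron 4 by 16 and 125. Intron 3 brings a stop at its codon 2.

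Ccnl2 encodes cyclin L2, a partner of a kinase that acts in splicing. Ccnl2-205 had 19 reads in replicate 1 and 85 in replicate 2, and 24.7% against 75.9% of known reads (adjusted p = 1.31e-10). Intron 5 of the coding transcript Ccnl2-201 contains the held interval and was spliced whole by 39 reads in replicate 1 and 31 in replicate 2. Introns 4 and 6 of Ccnl2-201 were spliced by 128 and 83 reads in replicate 1 and by 195 and 194 in replicate 2. Of reads that cover the held interval in an internal exon or splice exactly it, 22 of 23 in replicate 1 and 99 of 103 in replicate 2 covered it. These shares overlap within their intervals. Reads that splice intron 5 of Ccnl2-201 whole are not in these totals, so the shares do not give the part of the gene's reads that kept the interval.

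Sf3b1, the largest subunit of the SF3B complex that recognizes the branch point of introns, combined both forms. Sf3b1-203 had 14 reads in replicate 1 and 54 in replicate 2, which were 66.7% (21 known reads in all) and 83.1% (65 known reads); these shares did not pass the test (adjusted p = 0.395). Of all reads of the gene it took 7.29% in replicate 1 and 33.5% in replicate 2, which passed (adjusted p = 1.06e-08). Intron 4 was covered by 8.70% of reads in replicate 1 (4.84 to 14.2) and 60.5% in replicate 2 (50.9 to 69.6). Further along, intron 10 was spliced by 167 reads in replicate 1 and 128 in replicate 2, but intron 11 by only 7 and 18 and intron 24 by 16 and 24. Most reads of the gene therefore carried no junction past intron 10 in either library, and 157 reads in replicate 1 and 70 in replicate 2 were classed as incomplete splice matches.

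The known reads of Eprs were almost wholly a retained-intron transcript. Eprs encodes the glutamyl-prolyl-tRNA synthetase, which charges transfer RNAs with glutamate and proline. Eprs-204 had 274 reads in replicate 1 (323 CPM, 286 to 363) and 608 in replicate 2 (1115 CPM, 1028 to 1207), and 99.3% and 99.2% of known reads. These shares lie within each other's interval. Known reads were only part of the gene, and of all its reads Eprs-204 took 27.6% of 991 in replicate 1 and 75.1% of 810 in replicate 2 (difference −47.4 points, adjusted p = 1.32e-89, Fisher's exact test), with 673 reads in replicate 1 and 132 in replicate 2 classed as incomplete splice matches. Its last exon holds intron 20 of 31 and ends just past it. Over all models, intron 19 was spliced by 336 reads in replicate 1 and 685 in replicate 2, and intron 20 by 8 and 17, which is 2.38% and 2.48% of that. Introns 21 to 31 were spliced by 9 to 30 reads in replicate 1 and by 17 to 19 in replicate 2. Replicate 1 also thinned out before that point, with 902 reads at intron 3 and 467 at intron 14, against 773 and 746 in replicate 2. Because the held intron is in a last exon, how far single reads reached into it is not known.

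**Figure D2:**
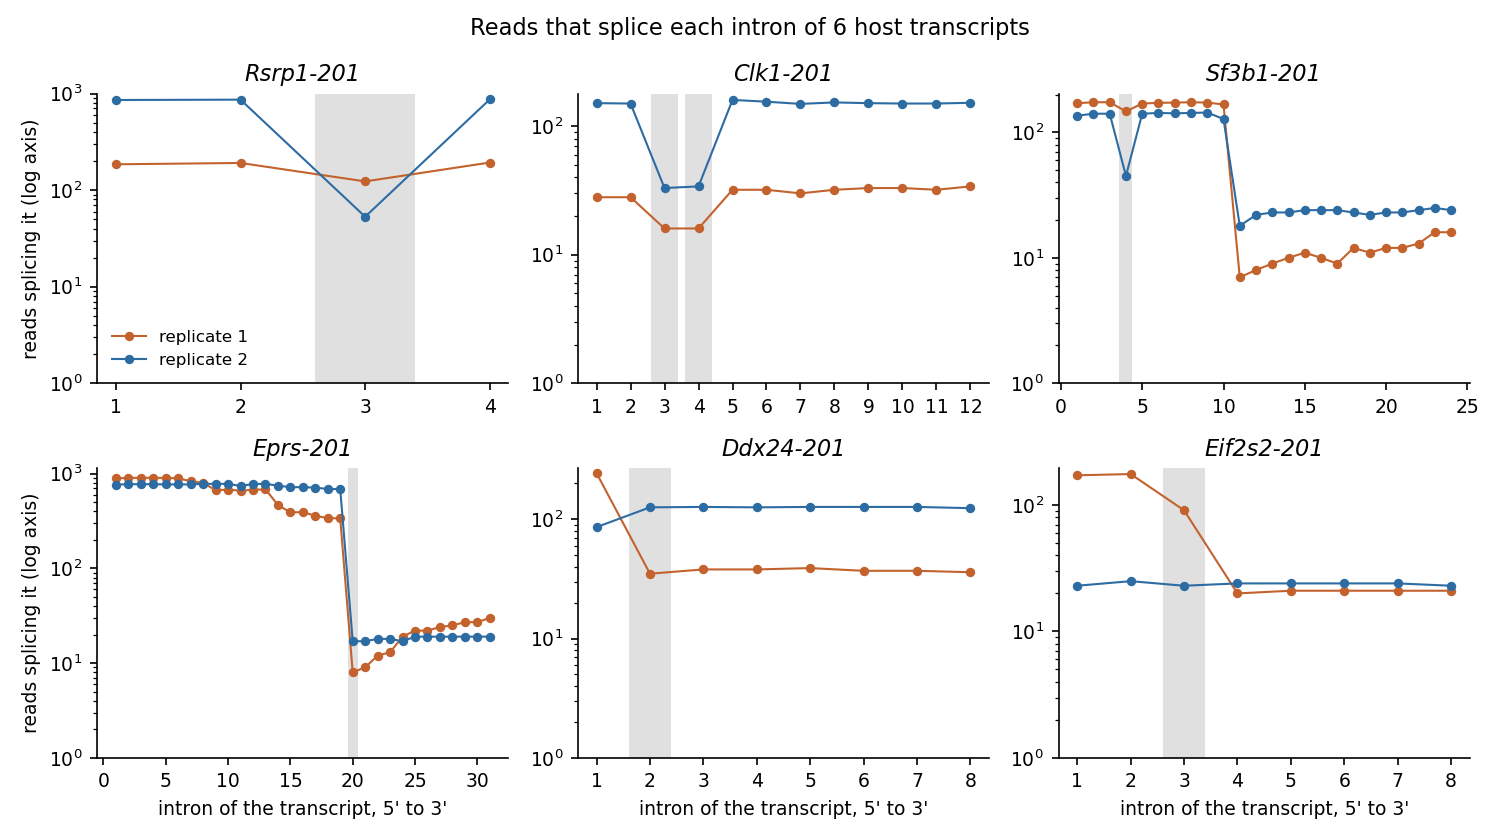
Reads that splice each intron, from the 5′ to the 3′ end, of 6 host transcripts in replicate 1 (orange) and replicate 2 (blue), over all models of the gene, on a log axis. Grey bands mark the introns that the retained-intron transcript holds or ends in. Counts dip at the band in Rsrp1 and Clk1 and recover after it, while they drop and stay low after intron 19 in Eprs and intron 10 in Sf3b1.

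Other members of high level had nearly all their reads in replicate 1 and ended at the 3′ side inside an early intron or just past it. Ddx24, an RNA helicase, is the clearest: Ddx24-204, which ends in intron 2, had 214 reads in replicate 1 (252 CPM) and 0 in replicate 2; against a floor of 3 reads in that library it was at least 45.8-fold higher in replicate 1. It made up 89.5% of known reads in replicate 1 and 0 of 84 in replicate 2 (adjusted p = 1.06e-52). Intron 1 was spliced by 244 reads in replicate 1 and 86 in replicate 2, and intron 2 by 35 and 126.

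Mtdh-209, of the membrane protein metadherin, ends in intron 2 of its host and had 141 reads in replicate 1 and 4 in replicate 2. Metap2-209, of a methionine aminopeptidase, had 153 reads in replicate 1 and 1 in replicate 2, with shares of 72.2% and 1.75% (adjusted p = 6.51e-22). Eif2s2-203, of the beta subunit of initiation factor 2, had 84 reads in replicate 1 and 2 in replicate 2, with shares of 84.0% and 9.09% (adjusted p = 1.31e-09). In Metap2, intron 2 was spliced by 239 reads in replicate 1 and 70 in replicate 2, and intron 3 by 66 and 65. In Eif2s2, intron 2 was spliced by 176 reads in replicate 1 and 25 in replicate 2, and intron 4 by 20 and 24. Rbm39-205, of a splicing factor, followed with 80 reads in replicate 1 and 3 in replicate 2. For each of these 4 members the Poisson intervals of replicate 1 and replicate 2 lay apart. With the length trend described below removed, Mtdh-209 and Eif2s2-203 still passed in level (log2 ratios 6.18 and 6.50), while Metap2-209 and Rbm39-205, of 931 and 1008 bases, did not (adjusted p = 0.0877 and 1).

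Scarb1-209 was the most read member of a gene of the steroid pathway. Scarb1 is the receptor that takes up cholesterol esters from lipoproteins, the raw material of adrenal steroids. Scarb1-209 ends 544 bases into intron 11 of 12, so it lacks the last 2 junctions, and had 172 reads in replicate 1 (203 CPM) and 339 in replicate 2 (622 CPM). Its share of known reads was 11.2% in replicate 1 (9.63 to 12.8) and 6.55% in replicate 2 (5.89 to 7.26), with adjusted p = 3.28e-07. Spliced reads dropped from intron 10 to intron 11 in both libraries: in replicate 1 they numbered 1709 and 1453, and in replicate 2 5433 and 4813.

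Several members had a share within their gene that did not pass the test between the libraries. Pgp, which hydrolyses phosphoglycolate, has a single intron, and its unspliced form Pgp-202 had 127 reads in replicate 1 and 21 in replicate 2, or 32.2% (27.6 to 37.0) and 28.8% (18.8 to 40.6) of known reads. Rpl5-204, of a protein of the large ribosomal subunit, took 25.8% in replicate 1 and 27.7% in replicate 2; it begins inside an intron and overlaps the snoRNA gene Snord21. Rps24-204 took 53.9% and 58.1%, and Maged1-207 8.44% and 10.8%. The intervals of these shares overlap between the libraries, and none passed the test. Of all reads of its gene Rps24-204 took 20.6% in replicate 1 and 14.3% in replicate 2, the other order, and did not pass either (adjusted p = 0.329). Syn2-205, of a synaptic vesicle protein, took 63.6% of 44 known reads in replicate 1 and 36.4% of 33 in replicate 2, and did not pass either (adjusted p = 0.12). Tesc-203, of a calcium-binding protein, took 7.90% of 1051 known reads in replicate 1 and 14.8% of 27 in replicate 2, which at this depth could not be told apart.

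**Figure D3:**
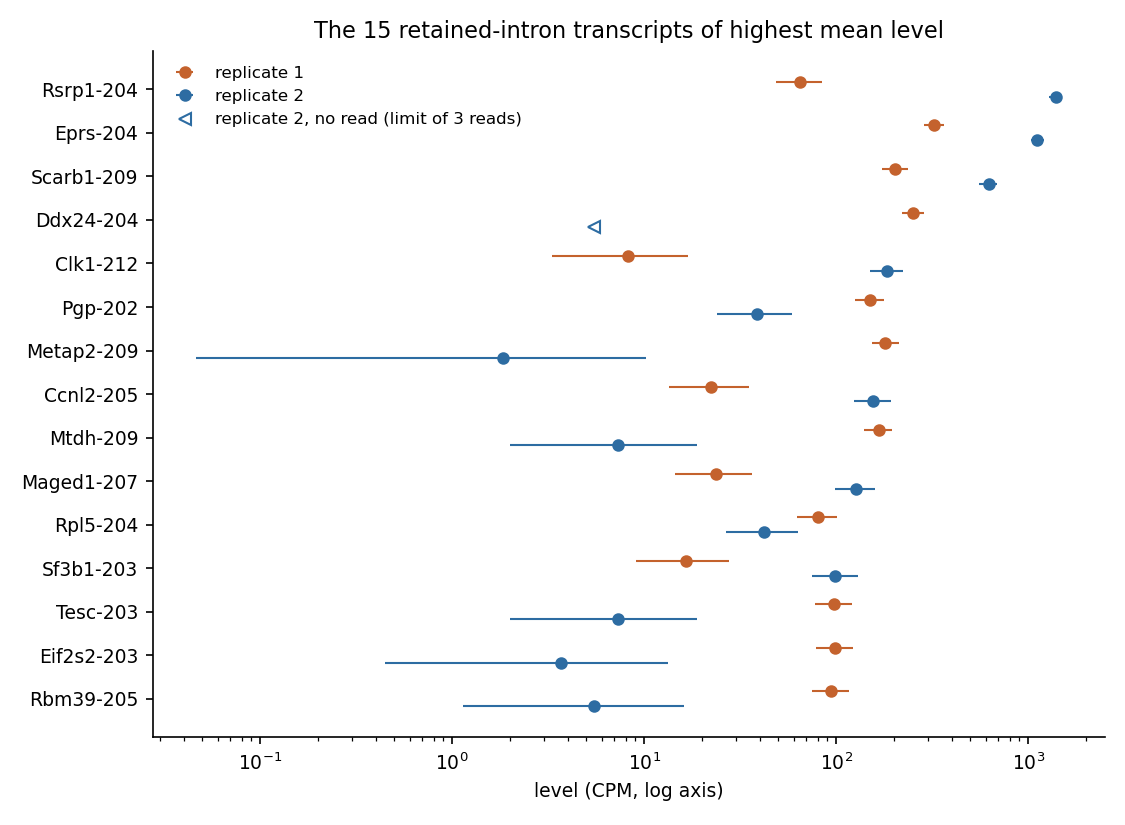
Level in CPM (log axis) of the 15 members of highest mean level in replicate 1 (orange, upper) and replicate 2 (blue, lower), with 95% exact Poisson intervals; the open triangle marks 0 reads at the limit of 3 reads. Rsrp1-204, Eprs-204 and Clk1-212 lie higher in replicate 2, and Ddx24-204, Metap2-209 and Mtdh-209 higher in replicate 1.

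Summed per gene, retained-intron reads were a minor part in most hosts. Of 9421 genes with an annotated retained-intron transcript, 1267 had at least 20 known reads in each library, and 598 of these (47.2%) had no retained-intron read. The median of the mean share was 0.179%, and the top 10% of genes began at 7.55%. In both libraries, 69 genes were over 5%, 32 over 10% and 5 over 50%. Those 5 were Eprs (99.6% in replicate 1 and 99.8% in replicate 2), Sf3b1 (81.0% and 84.6%), Ngrn, which encodes neugrin (55.6% and 73.3%), Ccnl2 (51.9% and 75.9%) and Rps24, a protein of the small ribosomal subunit (67.4% and 58.1%). Counted by library, 17 genes were over 50% in replicate 1 and 8 in replicate 2. Known reads are only part of some genes: Eprs had 276 known of 991 reads in replicate 1 and 613 of 810 in replicate 2, and Rps24 89 of 233 and 31 of 126.

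Further genes over 10% in both libraries, chosen as examples after their values were seen, were regulators and an enzyme. Hsf1, the main transcription factor of the heat shock response, stood at 16.7% in replicate 1 and 46.9% in replicate 2. Irf3, a transcription factor of the interferon response, stood at 25.8% and 30.4%. Nr2f2, an orphan nuclear receptor, stood at 26.1% and 13.0% on 23 known reads in each library. Mdp1, a magnesium-dependent phosphatase, had close shares of 40.3% and 38.5%, and its 69-base intron 2 was covered by 40.3% of reads in replicate 1 and 40.7% in replicate 2.

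**Figure D4:**
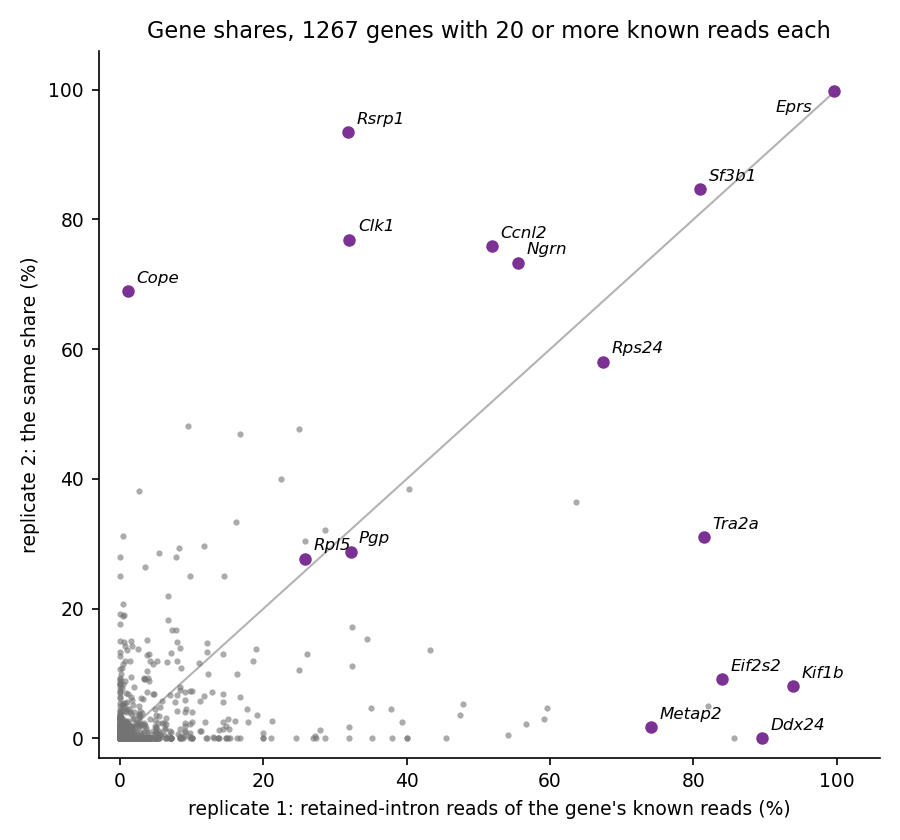
Share of known reads assigned to retained-intron transcripts (%), per gene, in replicate 1 (horizontal axis) and replicate 2 (vertical axis), for the 1267 genes with 20 or more known reads in each library. Each point is a gene and the grey line marks equal shares. Most genes lie near 0 in both; Eprs, Sf3b1 and Rps24 lie near the line, and Rsrp1 and Ddx24 far from it.

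The share of a member within its gene differed between the libraries in 37.2% of tests, against 14.9% over all known models. The test took known models with at least 5 reads in sum, in genes with at least 20 known reads in each library, at an adjusted p under 0.05. Of 2366 known models tested, 353 (14.9%) passed, and of the 234 retained-intron models among them 87 (37.2%) passed. Higher in replicate 1 were 58 members (24.8%, against 7.82% of all models), and lower were 29 (12.4%, against 7.1%). The median difference, replicate 1 minus replicate 2, was 1.23 percentage points over the members and −0.18 over all models. Direction followed structure. Of 34 tested members with a whole intron in an internal exon 0 were higher in replicate 1 and 8 lower, and of 96 that end inside an intron 38 were higher and 5 lower. With a whole intron in a first, last or only exon, 16 of 66 were higher and 11 lower, and of 36 that begin inside an intron 4 were higher and 5 lower. Where only models within 500 bases of the mean length of the other models of the gene were tested, 66 members remained and 12 passed (18.2%), 7 higher and 5 lower, against 96 of 1031 known models (9.31%).

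The largest differences are named by rule. Among those highest in replicate 1 were Ddx24-204, Hsp90aa1-206, Kif1b-209, Eif2s2-203 and Metap2-209. Hsp90aa1-206, of an inducible chaperone, took 17 of 21 known reads in replicate 1 and 0 of 28 in replicate 2 (adjusted p = 3.51e-08); over the 203 and 102 reads of all classes the difference was 8.37 points (adjusted p = 0.00641). Kif1b-209, of a kinesin motor, took 29 of 33 known reads in replicate 1 and 2 of 25 in replicate 2. Over all reads of the gene the differences of Kif1b-209 and Eif2s2-203 were 38.4 and 37.8 points, against 79.9 and 74.9 points over known reads. Of 19 described members that passed in share, 10 had a difference smaller by over 1.5 times over all reads, and all 19 still passed. The 6 that were lowest in replicate 1 were Rsrp1-204, Ccnl2-205, Cope-204, Clk1-212, Tnip2-206 and Fdps-205. Cope-204, of a coat protein of Golgi vesicles, took 3 of 366 known reads in replicate 1 and 15 of 29 in replicate 2 (adjusted p = 7.01e-15), and it holds introns 2 and 3 of its host whole. Tnip2-206, of an inhibitor of NF-kappaB signalling, took 9.52% in replicate 1 and 48.1% in replicate 2.

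Levels differed for most models. The reads of each model were set against the remaining reads of the library in Fisher's exact test, for models with at least 10 reads in sum. It passed for 6185 of 8206 known models (75.4%), 34.7% higher in replicate 1 and 40.7% lower. Of 234 members 156 passed (66.7%), 102 higher in replicate 1 (43.6%) and 54 lower (23.1%). The median log2 ratio of replicate 1 over replicate 2, after adding 1 CPM, was 1.04 over members and −0.31 over all models. The ratio followed annotated length in members as in other models. It had a median of 3.45 in the 68 tested members from 500 to under 1000 bases and 4.03 in 786 other models of that length, and of −1.19 in 30 members from 3000 to under 4000 bases and −2.09 in 1418 others. With the running median over length taken off, the members had a median of −0.08 and all models 0, and 40 members were then higher (17.1%, against 19.6% of all models) and 36 lower (15.4%, against 16.0%).

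**Figure D5:**
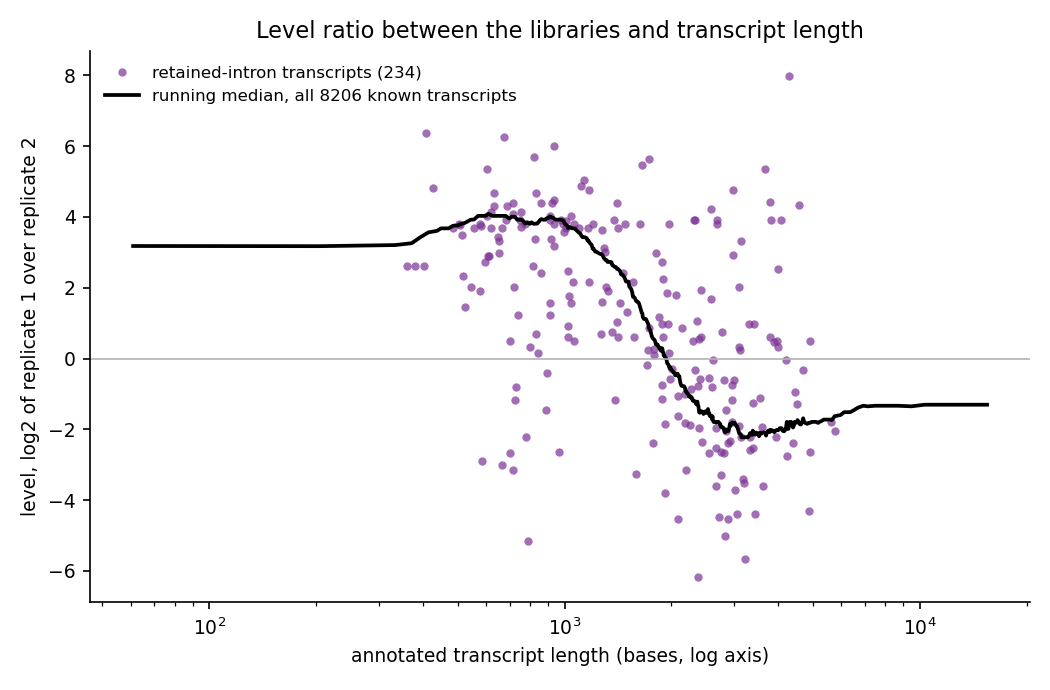
Level ratio of replicate 1 over replicate 2 (log2, with 1 CPM added) of the 234 tested members against annotated transcript length in bases on a log axis; points are members and the black line is the running median of all 8206 known transcripts tested. The line falls below 0 near 2000 bases and the members scatter around it, with Ddx24-204 the highest point.

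By the largest ratio, the members higher in replicate 1 were led by Ddx24-204, Fkbp3-207 (69 reads in replicate 1 and 0 in replicate 2), Mrpl21-203 (64 and 0), Metap2-209 and Tbrg1-202 (43 and 0). Fkbp3 encodes a prolyl isomerase and Mrpl21 a mitochondrial ribosomal protein. Among those lower in replicate 1 were Dlst-212 (0 reads in replicate 1 and 27 in replicate 2), Tef-207 (0 and 19), Stk25-204 (0 and 17) and Fbxl6-204 (0 and 12). Dlst encodes a subunit of a mitochondrial dehydrogenase. Fkbp3-207, Mrpl21-203 and Tbrg1-202 are under 1000 bases, where most models were higher in replicate 1, and did not pass with the length trend removed (adjusted p = 0.124, 0.326 and 0.436). Tef-207 has 791 bases and went against the trend of its length (log2 ratio −5.16, and −8.97 with the trend removed).

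Of 17 genes of steroid synthesis, 5 have an annotated retained-intron transcript. In these, 3 members in 2 genes, Scarb1 and Cyp11a1, received 184 of the 43745 known reads of the list in replicate 1 (0.421%, 0.362 to 0.486) and 391 of 46491 in replicate 2 (0.841%, 0.760 to 0.928). Cyp11a1 encodes the enzyme that makes pregnenolone, the first step of steroid synthesis. Cyp11a1-204 had 3 reads in replicate 1 and 51 in replicate 2, or 0.0486% and 1.11% of known reads (adjusted p = 3.74e-14). Its held intron 3 was covered in an internal exon by 17 of 6542 reads in replicate 1 (0.260%) and 146 of 5306 in replicate 2 (2.75%). In any exon it was covered by 30 and 196 reads. Of the chromaffin cell genes, which make and store catecholamines, 7 of 23 have an annotated retained-intron transcript and 2 had a member read, with 7 reads in replicate 1 and 2 in replicate 2, out of 11878 and 15022.

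In genes of cholesterol synthesis and supply, 11 members took 7.28% of 1414 known reads in replicate 1 and 1.77% of 1691 in replicate 2. Soat1, which esterifies cholesterol for storage, made up 77 of the 103 reads in replicate 1 and 4 of the 30 in replicate 2. Soat1-203 took 30.7% of known reads in replicate 1 and 1.28% in replicate 2 (adjusted p = 3.37e-19); it has 509 bases and ends 130 bases into intron 4, and its level ratio equalled the running median at its length. Fdps-205, of farnesyl diphosphate synthase, is a single exon that overlaps another gene. It ends 361 bases into intron 3 of 9 of its host. Fdps-205 took 5 of 188 known reads in replicate 1 and 8 of 21 in replicate 2 (adjusted p = 5.16e-05, Fisher's exact test). Msmo1-203, of a sterol oxidase, took 2.68% and 3.76%, which did not differ in the test (adjusted p = 0.812). Srebf2, the transcription factor that induces these genes, had 7 of 7 known reads in replicate 1 and 7 of 9 in replicate 2 in Srebf2-205.

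Of the 9 lists, SR proteins and their kinases had the highest share in replicate 2, and RNA-binding proteins the highest in replicate 1. In SR proteins and their kinases, 31 members in 16 of 22 genes took 11.7% of 852 known reads in replicate 1 (9.65 to 14.1) and 208 of 990 in replicate 2 (18.5% to 23.7%). The median gene share was 4.27%, over 8 genes with 20 known reads in each library, against 0.179% over all such genes. Clk1 gave 8 of the 100 reads in replicate 1 and 103 of the 208 in replicate 2, and without it, an alternative added after seeing the data, the shares were 11.1% and 12.3%. Of 4 members tested within their gene 3 were higher in replicate 1 and 1 lower (7.82% and 7.1% of all models). Besides Clk1, Srsf5-212 had 1 read in replicate 1 and 26 in replicate 2, and Srsf7-207 had 2 and 25. Intron 5 of Srsf5 was covered by 11 of 21 reads in replicate 1 and 302 of 310 in replicate 2, mostly in models that the annotation does not hold. Intron 3 of Srsf7 was covered by 35.0% in replicate 1 and 39.6% in replicate 2. Tra2a-203, of a splicing activator, was among the 3 that were higher, with 81.5% of 27 known reads in replicate 1 and 31.0% of 29 in replicate 2 (adjusted p = 0.00217).

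In heterogeneous nuclear ribonucleoproteins and other RNA-binding proteins, 30 members took 12.8% of 1298 known reads in replicate 1 and 2.55% of 3496 in replicate 2. Rbm39 alone gave 123 of the 166 reads in replicate 1 and 5 of the 89 in replicate 2. Cirbp-204, of a cold-induced protein, had 12 reads in replicate 1 and 0 in replicate 2. Luc7l-204, of a U1-associated splicing protein, had 1 and 14. Proteins of nonsense-mediated decay and the exon junction had 21 member reads of 505 in replicate 1 (4.16%, 2.59 to 6.29) and 12 of 131 in replicate 2 (9.16%, 4.82 to 15.5), and these intervals overlap.

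In cytosolic ribosomal proteins, 43 members took 1.11% of 33463 known reads in replicate 1 (1.00 to 1.23) and 3.73% of 2198 in replicate 2 (2.98 to 4.61). Of 13 tested members 0 were higher in replicate 1 and 1 lower in share within the gene, against 7.82% and 7.1% of all models, while 7 of 9 tested were higher in level, against 34.7% of all models. With the length trend removed, Rpl14-202, Rpl10a-206 and Rpl6-207 did not pass in level (adjusted p = 0.618, 0.206 and 0.875), and Rpl5-204 passed in the other direction (log2 ratio −2.77, adjusted p = 3.81e-10). Rpl10a-206 had 47 reads in replicate 1 and 5 in replicate 2, and its intron 3 was covered by 61 of 901 reads in replicate 1 and 25 of 50 in replicate 2. Rpl14-202 took 8.82% and 11.8%, and Rpl6-207 9.94% and 3.33%. The snoRNA hosts took 1.18% of 3230 known reads in replicate 1 and 3.09% of 1294 in replicate 2. Rpl3-204 had a lower share of its gene in replicate 1, with 15 of 1139 known reads in replicate 1 and 22 of 184 in replicate 2 (adjusted p = 2.78e-09). Nop56-218 holds 2 introns with snoRNA genes; intron 8 was covered by 17.1% of reads in replicate 1 and 63.9% in replicate 2.

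Heat shock and immediate early genes took 0.241% of 14928 known reads in replicate 1 (0.169 to 0.334) and 0.176% of 12473 in replicate 2 (0.111 to 0.267), which overlap. Hspe1-202, of a mitochondrial chaperonin, took 4 of 868 known reads in replicate 1 and 19 of 61 in replicate 2 (adjusted p = 1.23e-18). Without Hspe1, an alternative added after seeing the data, the list had 32 of 14060 known reads in replicate 1 (0.228%) and 3 of 12412 in replicate 2 (0.0242%).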

How the data were processed

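Long-read RNA sequencing of adrenal gland tissue gave 2 libraries of 1 group. The deposited values are whole-number read counts per transcript model, made by the authors with TALON on mm10 and GENCODE M21, per the file headers and the annotation's source column; aligner, platform and read correction were not given in the sources used here. Members and gene lists were chosen with earlier results of these data known. Reads were joined to the annotation by transcript, and introns, ends and reading frames were taken from its exons. CPM is per 1000000 reads of the library; 1 read is 1.18 CPM in replicate 1 and 1.83 CPM in replicate 2. Shares have exact Clopper-Pearson intervals and levels exact Poisson intervals at 95%, with a floor of 3 reads. Fisher's exact tests (scipy 1.17.1) were run over all known models with Benjamini-Hochberg adjustment. Named are the 15 members of highest mean level, the 12 of highest share, up to 6 and 5 in each direction past the share and level tests, and up to 6 per list; some of these are not reported here. Alternatives used edgeR 4.0.16 TMM and DESeq2 1.42.0 size factors in R 4.3.3. Scripts were tested on simulated data.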

Additional observations from a re-analysis of the deposited data

How the results depend on the processing

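The mean share of 1.49% of known reads was 1.08% of all reads, 1.34% with unannotated spliced models in the total, 2.40% in genes with an annotated retained-intron transcript, 1.40% without models that overlap another gene, 1.26% without single-exon members, 1.15% without the 10 members of most reads and 0.837% in members with at least 10 reads. By length it was 3.75% at 500 to 1500 bases, 0.972% at 1500 to 3000 and 1.73% at 3000 or more. Alternatives added after seeing the data gave 1.23% without the 3 members of highest level, 0.302% with only members holding an intron in an internal exon and 1.19% without these. Each library alone gave 1.43% to 1.55%. The difference of −0.12 points was −0.0253 with unannotated spliced models (p = 0.253, Fisher's exact test). It turned to 0.0420 points at 3000 bases or more, 0.17 without the 10 members of most reads, 0.22 without the 3 of highest level and 0.22 without members holding an intron in an internal exon.

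Of the 87 members that passed within genes, the count was 50 with at least 50 known reads per gene (33 higher and 17 lower in replicate 1) and 12 among models of like length. Of the 156 that passed in level, it was 70 with at least 20 reads and 76 with the length trend removed, of which 48 were among the 156. TMM and DESeq2 offsets (log2 −0.47 and −0.56) each gave 165, with 117 and 119 higher. The median gene share of 0.179% was 0.0768% and 0.195% with at least 10 and 50 known reads, 0.0731% over all reads of the gene, 0.0162% without overlapping models and 0 to 0 in single libraries. The 5 genes over 50% became 9, 2 and 1 under the first 3 of these settings, and 8 to 17 in single libraries. The 63 introns were 29 with at least 50 reads. Of 38 described members that passed in level, 18 did not with the length trend removed, among them Eprs-204, Metap2-209, Sf3b1-203, Soat1-203 and Rbm39-205. Rpl5-204 turned to a log2 ratio of −2.77 and passed. Ratios that changed sign without passing were −0.32 for Tesc-203, 0.65 for Fdps-205, 1.05 for Msmo1-203, −0.072 for Cirbp-204, 0.015 for Nop56-218 and −1.21 for Rpl10a-206. TMM and DESeq2 offsets and no read minimum each took Nop56-218 and Rpl3-204 below the level test, and no read minimum the share of Tnip2-206. The share difference of Eprs-204 was −47.4 points over all reads of the gene and −2.97 with unannotated spliced models, and that of Rps24-204 was 6.32 and 7.21. Over all reads of the gene the mean shares were 51.4% for Eprs-204, 20.4% for Sf3b1-203 and 17.4% for Rps24-204. The cause of these changes was not tested. No paired analysis was possible because the 2 libraries form 1 group.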

Other observations

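By the share of reads that cover an intron in an internal exon, retention was above 10% in both libraries at 31 introns in 24 genes. They lay outside coding exons and had at least 20 reads in each library, and 28 of these were higher in replicate 2. Ppox, an enzyme of heme synthesis, held 4 of them. Its intron 5 was covered by 9 of 24 reads in replicate 1 and 45 of 67 in replicate 2. In Rgs11, a regulator of G protein signalling, intron 4 was covered by 21 of 22 reads in replicate 1 and 139 of 139 in replicate 2, and the 65-base intron 3 by 36.4% and 19.1%. Hsd3b7, an enzyme of bile acid synthesis, had close shares at its 71-base intron 4, with 36.2% in replicate 1 and 37.5% in replicate 2. Trmt1, a transfer RNA methyltransferase, was also close, with 34.9% and 37.3%. Sirt7, a nuclear deacylase, differed, with 31.3% in replicate 1 and 70.1% in replicate 2. These introns were chosen after their values were seen.

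Some held introns also lie inside an exon of another annotated coding transcript. Of 1424 held introns, 72 (5.06%) lie inside an exon of an annotated protein-coding transcript. The 69-base interval of Ftl1-205, of the ferritin light chain, was covered by 8380 of 8380 reads in replicate 1 and 429 of 429 in replicate 2, of which 8353 and 426 were reads of protein-coding transcripts. A 104-base interval in Abhd4 was likewise covered by 431 of 431 reads in replicate 1 and 957 of 960 in replicate 2.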
